A study of Mus musculus with 4 samples.

Results

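A set of shallow barcodes with transcripts of the mature olfactory sensory neuron and an excess of Hdac9, Ttll6 and Slc8a1 UMIs was taken from 4 single-cell RNA libraries of the mouse main olfactory epithelium. A barcode marks 1 droplet that the authors' software had called as a cell, and each UMI, a random tag added before amplification, counts as 1 molecule of RNA. The rule asked for at least 500 detected genes, at most 10% mitochondrial UMIs, 1000 to 4500 UMIs in all, at least 5 UMIs of Omp, at least 3 UMIs summed over Hdac9, Ttll6 and Slc8a1, and at most 10 UMIs of Cyp2g1. It found 2366 barcodes among 41911, and among 39715 that met the limits on detected genes and mitochondrial UMIs. Female 1 gave 545 of them, female 2 gave 579, male 1 gave 626 and male 2 gave 616, and they are called long-transcript barcodes below. All animals were wild-type mice of strain C57BL/6J aged 3 months, with 2 libraries from females and 2 from males. The labels name no treatment. Cells were released by papain digestion, and the chemistry read the 5′ end of polyadenylated RNA.

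The olfactory sensory neuron carries odorant receptors on cilia at the nasal surface and sends an axon to the olfactory bulb. A mature neuron expresses Omp (olfactory marker protein) and, as a rule, mainly 1 of the many odorant receptor genes, whose signal passes through the G protein subunit Gnal, the adenylyl cyclase Adcy3 and the channel subunit Cnga2. Long genes consist mostly of introns and take longer to transcribe and splice than the short genes of ribosomes and of the respiratory chain. The share of mitochondrial UMIs is commonly used as a measure of cell quality in droplet data.

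Each library was used to compare the long-transcript barcodes with a pair of other groups. The deep neurons had at least 20 Omp UMIs and more than 4500 UMIs, under the same limits on detected genes and mitochondrial UMIs, and numbered 4618, 4541, 4530 and 4713 in the order female 1, female 2, male 1, male 2. The other shallow barcodes met every condition of the long-transcript barcodes but held 0 to 2 UMIs of the 3 genes together, and numbered 279, 321, 293 and 359. Depth, Omp, Cyp2g1, the mitochondrial limit and the 3 genes therefore define the groups, and their values are given as a description. The labels do not say how many animals each library came from, so p-values measure the spread between these 4 libraries.

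The libraries held 100725429 to 111577458 UMIs in 10256 to 10777 barcodes. The summed counts of the long-transcript barcodes came to 1776131 to 1971439 UMIs per library, against 51974834 to 54830296 for the deep neurons and 713275 to 964673 for the other shallow barcodes. Between 136 and 172 barcode sequences were shared by any pair of libraries, and at most 1 of them was a long-transcript barcode in both. No doublet caller was run. Of 41 measures of the long-transcript barcodes, 0 had a library whose gap to the nearest of the other 3 passed Dixon's 95% critical value.

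The genes behind the rule were the first values examined. Hdac9 encodes a class IIa histone deacetylase, Ttll6 a tubulin polyglutamylase, Slc8a1 the sodium-calcium exchanger NCX1, and Exoc6b a subunit of the exocyst, the complex that tethers secretory vesicles to the plasma membrane. On GRCm38 (GENCODE M21) Hdac9 lies on chromosome 12 from 34047580 to 34917095 on the minus strand, a span of 869.5 kb. Slc8a1 lies on chromosome 17 from 81373105 to 81738377 on the minus strand and spans 365.3 kb. Exoc6b lies on chromosome 6 from 84618487 to 85069513 on the minus strand and spans 451.0 kb. Ttll6, on chromosome 11 from 96133786 to 96165451 on the plus strand, spans 31.7 kb and sits at percentile 67.5 of genomic span. Slc8a1, the shortest of the other 3, lies at percentile 98.2, and Omp (chromosome 7, 98143359 to 98145502, minus strand) is a single exon of 2.14 kb.

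The summed level of Hdac9, Ttll6 and Slc8a1 was 1852 ± 42.8 CPM (UMIs per 1e6 UMIs of the sum, SD, n = 4 libraries) in the long-transcript barcodes and 448.1 ± 19.0 in the deep neurons, which the rule itself had fixed in part. Slc8a1 gave 46.1% ± 1.41 of these UMIs, Hdac9 31.0% ± 2.11 and Ttll6 22.9% ± 0.933 (SD, n = 4). All 3 genes were present in 45.9% ± 1.85 of the barcodes, 2 of them in 46.4% ± 1.86 and 1 in 7.70% ± 1.10. The median barcode held 5 to 6 of these UMIs and the highest in any library held 17, while 19.5% ± 1.60 sat at the minimum of 3. Exoc6b, which the rule did not count but which was given as a marker of the same barcodes, measured 1358, 1188, 1245 and 1186 CPM in the long-transcript barcodes. It measured 780.9, 732.9, 839.8 and 726.7 CPM in the other shallow barcodes and 360.3, 315.6, 324.5 and 302.0 CPM in the deep neurons. The 3 groups did not overlap for Exoc6b, and the other shallow barcodes lay between the other two.

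Shares of barcodes with a UMI depend on depth, so every barcode was also thinned to 1000 UMIs, which left out none of these groups. After thinning, Exoc6b was detected in 63.5% ± 2.83 of the long-transcript barcodes, 44.6% ± 2.52 of the other shallow barcodes and 28.9% ± 2.15 of the deep neurons (SD, n = 4), and unthinned in 89.3% ± 1.64, 68.0% ± 5.65 and 89.9% ± 2.03. Hdac9 was detected in 43.9% ± 2.37 of the thinned long-transcript barcodes, 12.3% ± 2.38 of the other shallow barcodes and 12.6% ± 0.156 of the deep neurons. A reference outside the neurons was read from sustentacular cells, the supporting cells of the epithelium, taken as barcodes with at least 30 UMIs of Cyp2g1 and fewer than 5 of Omp. At the same thinned depth they held Hdac9 in 0.538% ± 0.288 and Exoc6b in 3.70% ± 0.663, from an unthinned median of 13827 UMIs against 3210 in the long-transcript barcodes. Omp, by contrast, was detected in 11.7% ± 0.831 of the thinned sustentacular barcodes, and Cyp2g1 in 26.3% ± 3.63 of the thinned long-transcript barcodes and 20.9% ± 1.27 of the deep neurons, so transcripts of other cells were present in all groups. The sustentacular barcodes were deeper before thinning, so their shares need not equal the background of the shallow barcodes.

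The label of mature neuron was checked on lists of markers. All 16 mature markers passed the filter on low counts. Their summed level was 33377 ± 1449 CPM in the long-transcript barcodes, 41855 ± 1259 in the other shallow barcodes and 43182 ± 2972 in the deep neurons. This sum holds Omp, for which the rule sets a different minimum in the deep neurons, so it was fixed in part by the rule. Adcy3 measured 2734, 2632, 2641 and 2590 CPM in the long-transcript barcodes and 1184 to 1266 CPM in the deep neurons, and Gnal measured 3626 to 3737 and 2696 to 2867 CPM. Both genes were present in every library and neither overlapped between these 2 groups. Adcy3 was chosen after its values were seen. Other mature markers went the other way, among them S100a5, whose values are given below. The log2 fold changes of the 16 mature markers against the deep neurons ranged from -3.19 to 0.91. The 16 markers of immature neurons summed to 1227 ± 57.4 CPM, below the deep neurons (2352 ± 114) and the other shallow barcodes (1771 ± 158). Gap43, a growth cone protein of immature neurons, measured 27.0, 23.8, 25.9 and 31.5 CPM against 122.1 to 140.7 in the deep neurons. Gap43 was also chosen after its values were seen. Of the 15 mature markers other than Omp, 8 were higher and 7 lower than in the deep neurons (36.7% and 36.0% of all genes), and 1 was higher and 10 lower than in the other shallow barcodes (15.3% and 17.6%). The summed mature markers, Omp included, lay below both groups, and so did the summed immature markers.

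Markers of other cell types were read in the same sums. The 11 sustentacular markers summed to 976.4 to 1279 CPM in the long-transcript barcodes, 1143 to 1441 in the other shallow barcodes and 8217 to 10370 in the deep neurons. The rule limits Cyp2g1 in the shallow groups only. With that limit on the deep neurons too, their sum was 532.2 ± 55.3 CPM, below the shallow groups. The limit of 10 UMIs is a smaller share of a deeper barcode, and the deep neurons under it had median depths of 8487 to 9353 UMIs. Cyp2g1 is also among the 11 markers summed. That the deep neurons lay below the shallow groups was therefore fixed in part by the limit. The 7 microvillar markers summed to 10.3 ± 1.56 CPM and 0 of 7 passed the filter, the 5 horizontal basal markers to 8.01 ± 3.08 CPM, and the 7 ensheathing glia markers to 15.8 ± 4.17 CPM. Of 8 respiratory and gland markers, 6 passed the filter. Against the deep neurons 1 was higher and 5 lower (background 36.7% and 36.0%), with log2 fold changes from -1.66 to 1.96. Against the other shallow barcodes 0 were higher and 3 lower (background 15.3% and 17.6%), with a highest value of 1.24. The 12 immune markers summed to 25.4 to 60.9 CPM in the long-transcript barcodes and to 36.8 to 599.2 CPM in the other shallow barcodes, where male 2 was highest. The part of these transcripts in the gene differences below was not tested, except where the Cyp2g1 limit is named.

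Depth separated these groups by rule. The long-transcript barcodes had median depths of 3310, 3204, 3219 and 3106 UMIs and 1950 ± 54.2 detected genes, the other shallow barcodes 2475 to 2620 UMIs and 1566 ± 28.4 genes, and the deep neurons 8958 to 9764 UMIs and 3640 ± 107 genes. At an equal 1000 UMIs the long-transcript barcodes showed a median of 779 ± 2.02 genes, against 739 ± 2.36 in the other shallow barcodes and 738 ± 3.20 in the deep neurons. Their mitochondrial share was 3.81%, 3.66%, 4.03% and 3.92%, and that of the deep neurons 1.86%, 1.86%, 2.11% and 2.01%. The share was higher in the long-transcript barcodes in 4 of 4 libraries, by 1.89 ± 0.0697 percentage points, and the groups did not overlap (exact two-sided sign-flip permutation test, p = 0.13, the smallest value 4 libraries allow). The other shallow barcodes had 3.56%, 3.54%, 3.90% and 3.41%. The long-transcript barcodes lay above them in 4 of 4 libraries by 0.252 ± 0.180 points, a difference that was -0.00752 points without the limit of 10%.

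Seen over barcodes of all depths with at least 5 Omp and at most 10 Cyp2g1 UMIs, without regard to the 3 genes, the make-up changed along depth rather than only at the limit of 4500 UMIs. Hdac9, Ttll6 and Slc8a1 together peaked at 1616 CPM in the 633 barcodes of 2500 to 3000 UMIs, were 1215 CPM at 4000 to 4500 and 1020 CPM at 4500 to 5000, and reached 442.8 CPM at 12000 to 20000. Mitochondrial mRNA went from 43782 CPM at 2000 to 2500 UMIs to 15157 CPM in the deepest bin. Messages of cytosolic ribosomal proteins went the other way, from 16127 CPM at 2500 to 3000 UMIs to 43200 CPM. Barcodes that met every other condition of the rule in the 500 UMIs below the depth limit held 1544 ± 148 CPM of the 3 genes and 3.28% ± 0.129 mitochondrial UMIs, and those in the 500 UMIs above it 1341 ± 63.7 CPM and 2.89% ± 0.211 (SD, n = 4). The 3 genes and the mitochondrial share were lower above the limit in each of the 4 libraries. Both sets had to hold at least 3 UMIs of the 3 genes, which is a smaller share at a higher depth. The fall of the 3 genes across the limit was therefore fixed in part by the rule.

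**Figure D1:**
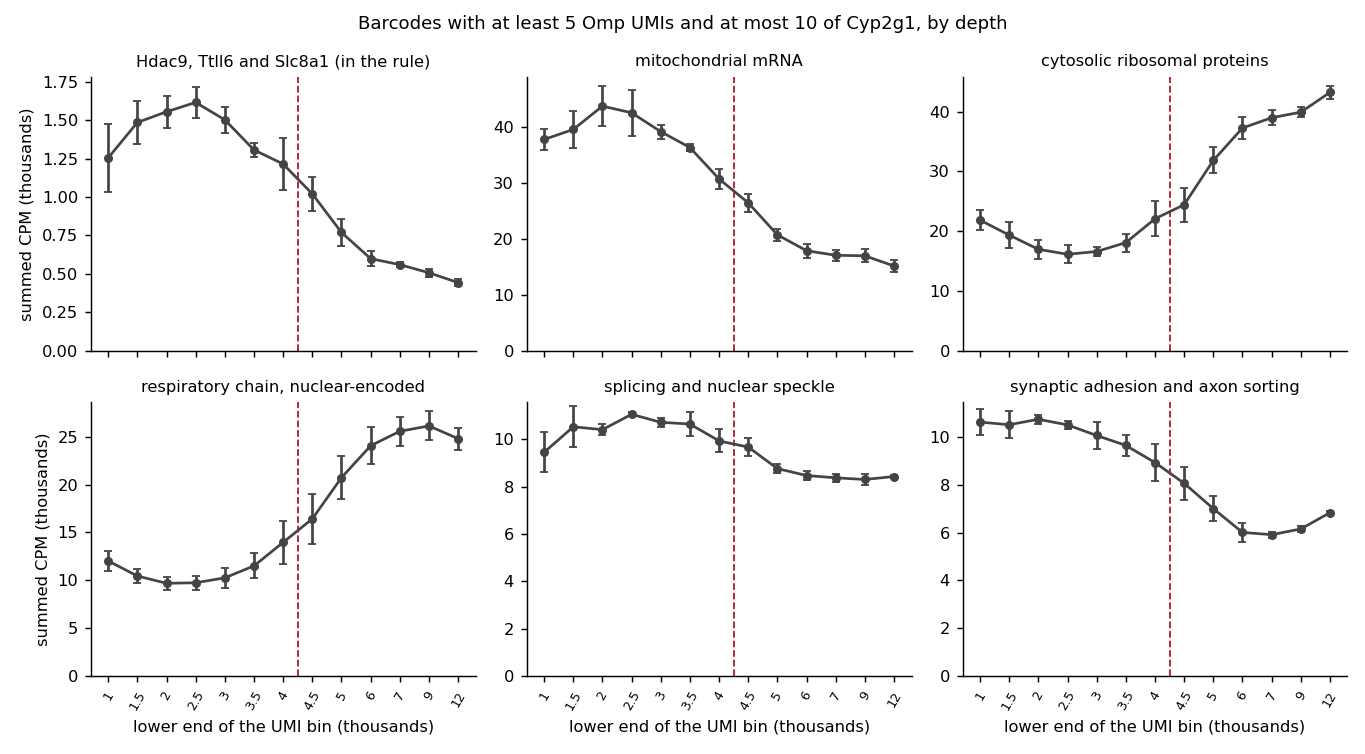
Summed CPM of Hdac9, Ttll6 and Slc8a1 and of 5 gene classes (vertical axes, in 1000 CPM) by the lower end of the UMI bin (horizontal axes, in 1000 UMIs), for barcodes with at least 5 Omp and at most 10 Cyp2g1 UMIs. Points are means and bars SDs over 4 libraries, and the dashed line marks 4500 UMIs; ribosomal protein messages were lowest, at 16127 CPM, in the bin where the 3 genes of the rule were highest, at 1616 CPM.

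Against the deep neurons, the long-transcript barcodes held more message of very long genes and of tubulin-modifying genes, and less message of ribosomal proteins, of nuclear-encoded respiratory chain subunits and of immediate early genes. Of 11001 genes tested, 4036 (36.7%) were higher and 3963 (36.0%) lower at an adjusted p under 0.05 (edgeR's quasi-likelihood test on counts summed per library, with Benjamini-Hochberg adjustment and the library as a block). A change of at least 2-fold was called for 908 genes (8.25%) that were higher and 1804 (16.4%) that were lower. The groups were chosen from these same libraries by depth and 3 genes, so these calls describe the chosen barcodes, and counts below are read against these shares. Without TMM scaling, which adjusts the library totals, 60.5% of the calls were higher in place of 50.5%, and the median of all genes moved from 0.02 to 0.21 (log2).

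Each of the 12 genes with the largest rise spanned more than the median gene tested, which spans 24.9 kb. Ccser1, on chromosome 6 from 61180324 to 62382865, measured 188.6, 166.2, 180.6 and 180.0 CPM in the long-transcript barcodes and 35.6 to 38.1 CPM in the deep neurons. The other shallow barcodes lay between, at 69.5 to 87.8 CPM, and no 2 groups overlapped. Its log2 fold change against the deep neurons was 2.06 ± 0.06 (SE). Nr6a1, a nuclear receptor gene, measured 111.1 to 156.0 CPM against 24.2 to 28.3 CPM (2.10 ± 0.08). Enox1, which spans 565.0 kb, measured 397.5, 396.1, 391.6 and 365.2 CPM against 88.9 to 92.7 CPM (1.89 ± 0.04). Agbl4, a carboxypeptidase that removes glutamates from tubulin and spans 1267 kb, measured 265.9 to 294.5 CPM against 61.9 to 68.0 CPM (1.91 ± 0.05). Genes of ciliary and flagellar axonemes stood in the same list. Of all 33 Cfap and Dnah genes tested, a list added after the values were seen, 21 were higher and 5 lower (background 36.7% and 36.0%), with a median of 0.68 (0.52 under the Cyp2g1 limit described below). Dnah11, an axonemal dynein heavy chain, measured 384.5, 384.5, 347.5 and 355.7 CPM against 80.8 to 83.7 CPM (1.96 ± 0.04), and the other shallow barcodes held 170.3 to 186.5 CPM. Cfap65 (2.06 ± 0.05) and Cfap47 (2.01 ± 0.05) rose with it, and Cfap65 spans 33.5 kb. Pxdn, Nphs1, Cerkl, Zmym6 and Pag1 completed the list with log2 fold changes of 1.90 to 1.98. All 12 stayed higher with the Cyp2g1 limit on the deep neurons, by 1.62 to 1.95.

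**Figure D2:**
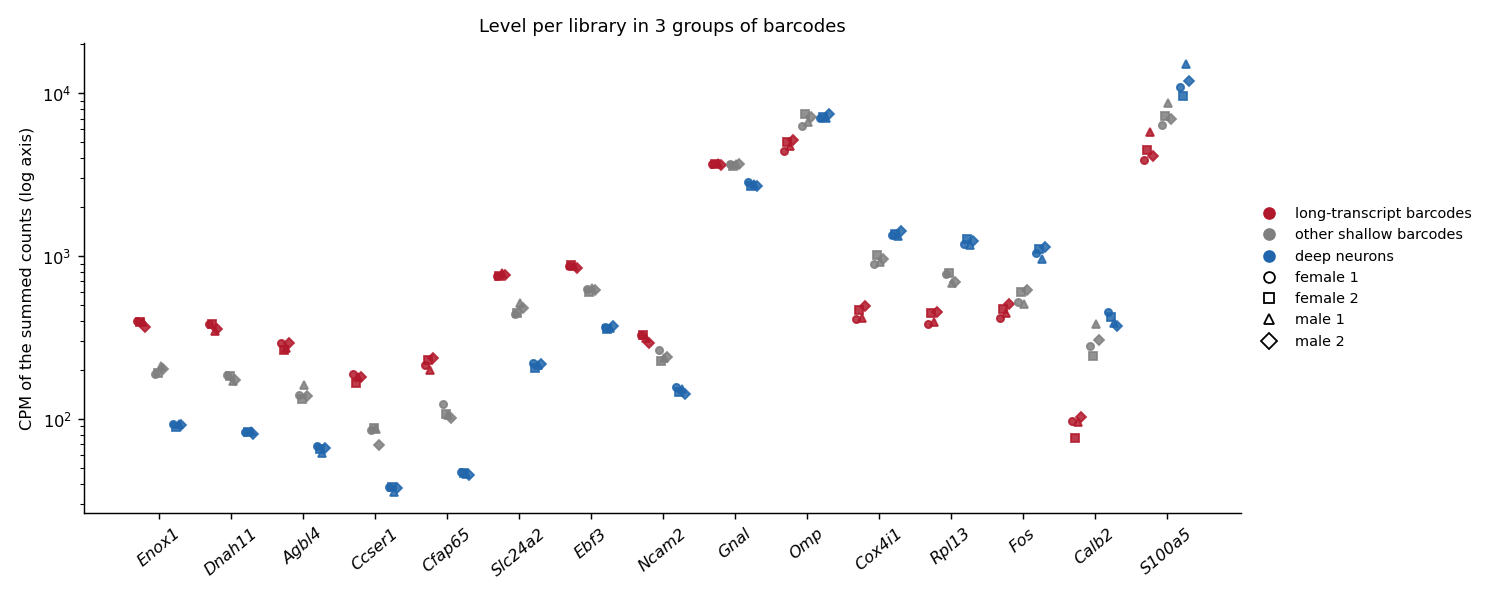
CPM of 15 genes (log axis) in the summed counts of each library, for the long-transcript barcodes, the other shallow barcodes and the deep neurons; symbols mark the 4 libraries. From Enox1 to Ncam2 the long-transcript barcodes were highest and the deep neurons lowest, and for Cox4i1, Rpl13, Fos, Calb2 and S100a5 the mean order was the opposite, with Calb2 overlapping between the other shallow barcodes and the deep neurons.

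The 12 largest falls, among them the sustentacular marker Muc2, were smaller or absent when deep neurons with over 10 UMIs of Cyp2g1 were left out, which kept 4099, 3921, 3940 and 4113 of them. Muc2, a mucin, measured 11.8 to 21.1 CPM in the long-transcript barcodes and 278.8 to 327.8 CPM in the deep neurons (-4.48 ± 0.10), and Sec14l3 156.2 to 200.4 CPM against 1843 to 2168 CPM (-3.68 ± 0.08). With the Cyp2g1 limit on the deep neurons the same contrasts were -0.09 and 0.15. Under that limit 87.5% of the 4036 higher calls and 77.0% of the 3963 lower calls were kept, and 610 of the latter changed sign. The 12 genes of this list (Muc2, Muc16, Aox2, Mgll, Abca13, Atp13a5, Rhod, Sec14l3, Tcim, Cpm, Tyro3 and Hey1) lay between -0.84 and 0.21 under it, with Tcim (-0.84), Muc16 (-0.78) and Hey1 (-0.64) the lowest. This limit moves the shares of all other genes in the deep group, and relative to depth it is stricter there than in the shallow groups. Medians under it are therefore given beside those of the classes below.

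Messages of ribosomal proteins and of the respiratory chain fell with and without the limit. Of 81 cytosolic ribosomal protein genes tested, 81 were lower (background 36.0%), with a median log2 fold change of -1.76, and -1.68 under the Cyp2g1 limit. Their summed level was 14019, 15871, 14402 and 15239 CPM in the long-transcript barcodes, 25444 to 28112 CPM in the other shallow barcodes and 42803 to 45433 CPM in the deep neurons. Rpl13, of the large subunit, measured 384.0, 448.8, 394.6 and 451.7 CPM against 1171 to 1278 CPM (-1.74 ± 0.04), and Rpl19 249.4 to 319.7 CPM against 966.0 to 1017 CPM (-2.04 ± 0.05). No library of one group reached the other. Of 45 nuclear-encoded respiratory chain genes, 45 were lower, with a median of -1.65 and, under the limit, -1.77. Cox4i1, a subunit of cytochrome c oxidase, measured 409.9 to 496.9 CPM against 1321 to 1427 CPM (-1.81 ± 0.04), and Cox8a, of the same complex, 430.1 to 581.3 CPM against 1345 to 1576 CPM (-1.71 ± 0.04). The 13 mitochondrially encoded messages were higher. They summed to 38140, 36571, 40296 and 39213 CPM in the long-transcript barcodes and 18581 to 21129 CPM in the deep neurons, and mt-Co1, also a subunit of cytochrome c oxidase, measured 6000 to 6791 CPM against 3462 to 3872 CPM. The rule limits these messages, so they are given with no test.

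Genes related to the 3 of the rule were read by family, against the background of 36.7% higher and 36.0% lower. In the calcium family without Slc8a1, 7 of 18 genes passed the filter, 5 were higher and 1 lower with a median of 0.87 with and without the limit, and the other 11 were too low to test, so the count does not cover the family. Slc24a2, a potassium-dependent sodium-calcium exchanger, measured 749.9, 759.0, 782.2 and 765.5 CPM in the long-transcript barcodes, 438.8 to 514.6 CPM in the other shallow barcodes and 205.8 to 220.7 CPM in the deep neurons. These ranges did not overlap, and the log2 fold changes were 1.64 ± 0.03 against the deep neurons and 0.59 ± 0.04 against the other shallow barcodes. Slc24a4, the exchanger that removes calcium from the olfactory cilium, rose by 1.43 ± 0.04, the plasma membrane pump Atp2b1 by 0.87 ± 0.03 and the reticulum pump Atp2a2 by 0.92 ± 0.03. Of 15 tubulin ligase-like and deglutamylase genes tested without Ttll6, 10 were higher and 1 lower, with a median of 0.63 and, under the Cyp2g1 limit, 0.38. Ttll3, a tubulin glycylase, measured 496.0 to 583.4 CPM against 164.9 to 183.5 CPM (1.44 ± 0.04), and Ttll7, a polyglutamylase, 1325 to 1433 CPM against 829.0 to 913.9 CPM (0.46 ± 0.02). Of 8 exocyst genes without Exoc6b, 6 were higher and 0 lower, with a median of 0.48 (0.43 under the limit), and Exoc4 rose most among those named, by 1.18 ± 0.05. The median genomic spans were 138.4 kb (calcium), 42.0 kb (tubulin) and 51.8 kb (exocyst). Of all genes tested, 67.6% of those of 100 to 200 kb were called higher. The share was 41.3% at 20 to 50 kb and 61.2% at 50 to 100 kb. The part of gene length in these family counts was not tested. The histone deacetylases other than Hdac9 were split. Of 10 tested, 3 were higher and 5 lower, with a median of -0.16 that became 0.18 under the Cyp2g1 limit and 0.03 without TMM scaling. Hdac1 fell by 0.87 ± 0.07 and Hdac5 rose by 0.36 ± 0.06 on the log2 scale.

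Genes of neuronal contact, of splicing and of transcription were read next. Of 28 genes of synaptic adhesion and axon sorting tested, 24 were higher and 2 lower (background 36.7% and 36.0%), with a median of 0.75 and, under the limit, 0.66. Clstn2, a calsyntenin of the postsynaptic membrane, measured 1190, 1170, 1099 and 1163 CPM against 503.6 to 527.1 CPM (0.97 ± 0.03), and the adhesion molecule Ncam1 2132 to 2205 CPM against 1313 to 1341 CPM (0.51 ± 0.02). Kirrel2, which sorts axons by activity, measured 1004 to 1468 CPM against 738.7 to 1023 CPM. Male 2 was lowest in both groups, and the groups overlapped across libraries, although within each library Kirrel2 was higher (0.31 ± 0.04 with the library as a block). Of 21 genes of presynaptic release, 14 were higher and 4 lower, with a median of 0.52, or 0.29 under the limit. The calcium sensor of release Syt1 rose by 0.74 ± 0.03, and the vesicle protein Syp was called lower at -0.14 ± 0.03 although its CPM, which is not scaled by TMM, was higher (651.4 to 691.5 against 634.8 to 660.0). Of 28 genes of splicing and nuclear speckles, 18 were higher and 5 lower, with a median of 0.22 (0.18 under the limit). Srrm2, a speckle scaffold, measured 815.6 to 967.9 CPM against 463.2 to 490.6 CPM (0.70 ± 0.04), while the helicase Ddx5 was called lower at -0.14 ± 0.02 although its CPM were higher within each library (1992 to 2033 against 1891 to 1997), so the direction of both rests on the scaling. Among 27 genes of neuronal transcription and nuclear architecture, 12 were higher and 8 lower (background 36.7% and 36.0%), with a median of 0.01 (0.11 under the limit) whose sign changed under DESeq2. The transcription factor Ebf3 measured 867.6, 883.7, 863.3 and 848.4 CPM against 356.4 to 373.9 CPM (1.05 ± 0.03). Ebf2 (0.26 ± 0.03) and Ebf1 (0.24 ± 0.05) rose less, and the chromatin protein Hmgb1 fell by 1.07 ± 0.03.

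Among the counts of this paragraph, read against the background of 36.7% higher and 36.0% lower, the transduction genes split. Of 21 tested, 12 were higher and 7 lower, with a median of 0.22 that became -0.10 under the Cyp2g1 limit, and their summed level was 39213 ± 866 CPM against 40707 ± 590. Gnal rose by 0.22 ± 0.02. S100a5, a calcium-binding protein whose level follows neuronal activity, measured 3906, 4457, 5809 and 4126 CPM against 9699 to 15131 CPM (-1.58 ± 0.06), and male 1 was highest in both groups. Immediate early genes, which are induced within minutes of a stimulus or of dissociation, were lower for 21 of 22 tested and higher for 0, with a median of -1.40, or -0.96 under the limit. Fos measured 417.2, 472.6, 445.4 and 504.7 CPM against 958.9 to 1130 CPM (-1.40 ± 0.03) and Jun 564.7 to 713.0 CPM against 1124 to 1320 CPM (-1.24 ± 0.05). Among 19 genes of heat shock and the unfolded protein response, 14 were lower and 2 higher, with a median of -0.78 (-0.79 under the limit), and Hsp90ab1 fell by 0.93 ± 0.03. Among 13 genes of apoptosis and p53, 4 were higher and 6 lower with a median of -0.17 (-0.28 under the limit and 0.02 without TMM scaling). Ccng1 (-0.80), Cdkn1a (-0.74) and Bax (-0.70) were called lower, while the highest log2 fold change of the list was 1.04. Of 32 genes of ciliary transport, 18 were higher and 10 lower, and the median of 0.25 was 0.02 under the Cyp2g1 limit. Dync2h1, the motor of retrograde ciliary transport, rose by 1.09 ± 0.03, and Ift43 fell by 0.76 ± 0.05.

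**Figure D3:**
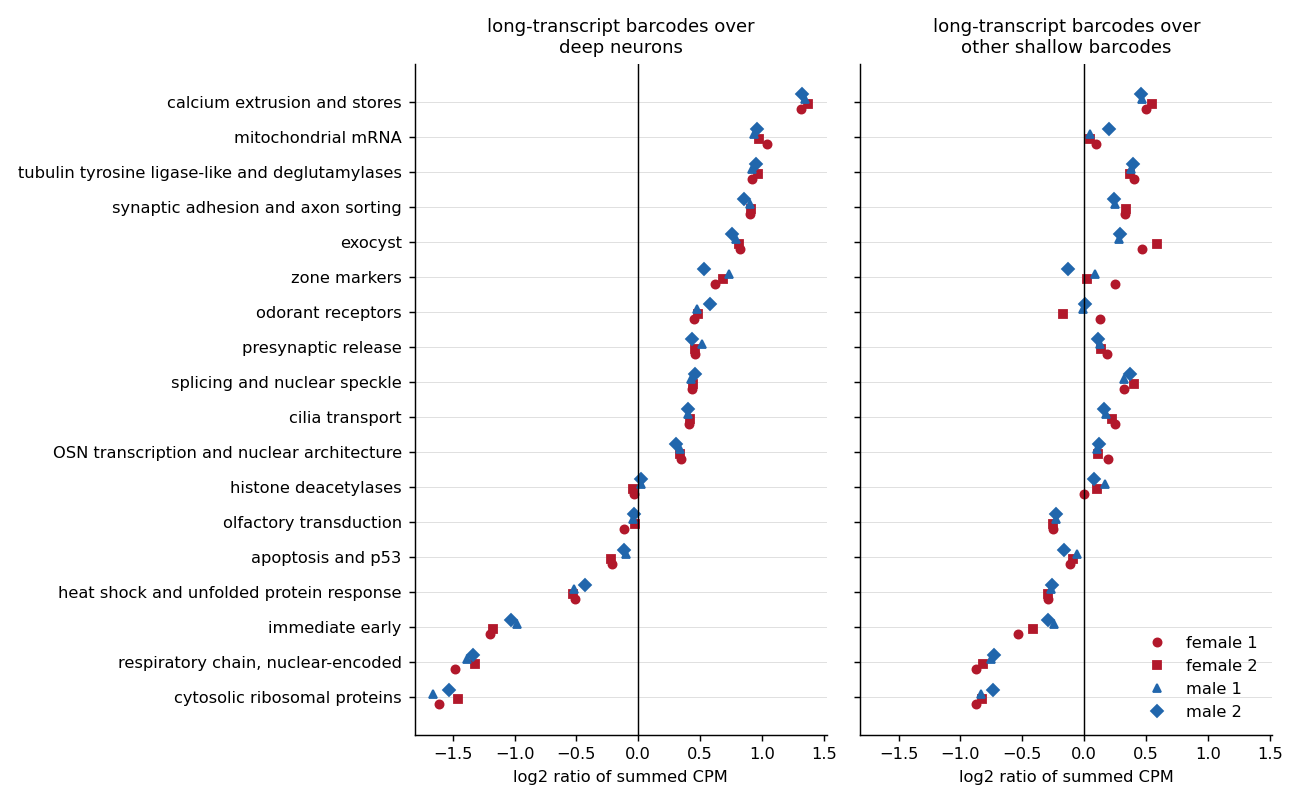
Log2 ratio of the summed CPM of 18 gene classes, long-transcript barcodes over deep neurons (left) and over other shallow barcodes (right), 1 symbol per library, without TMM scaling. Ribosomal proteins and the nuclear-encoded respiratory chain lay lowest in both panels and the calcium family highest on the left, while mitochondrial mRNA lay between 0.93 and 1.04 on the left and between 0.05 and 0.20 on the right.

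The other shallow barcodes allow the same question at similar depth. The long-transcript barcodes again held more message of long genes and less of ribosomal proteins and respiratory chain subunits, with medians nearer to 0. Of the 11001 genes, 1681 (15.3%) were higher and 1938 (17.6%) lower in the long-transcript barcodes, and 93 (0.845%) and 229 (2.08%) by at least 2-fold (same edgeR fit and adjustment). Without TMM scaling 63.3% of the calls were higher in place of 46.4%, and the median of all genes was 0.10. This comparison and the one with the deep neurons share the long-transcript sums.

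Plcxd3, on chromosome 15 from 4375491 to 4575553, measured 80.5, 63.2, 69.5 and 81.8 CPM in the long-transcript barcodes, 35.0, 19.0, 21.8 and 32.1 CPM in the other shallow barcodes and 23.5 to 27.0 CPM in the deep neurons. The log2 fold change against the other shallow barcodes was 1.35 ± 0.13, and those barcodes overlapped with the deep neurons. Epha7, an ephrin receptor of axon guidance, measured 152.4 to 164.4 CPM against 65.9 to 73.6 CPM (1.08 ± 0.08). Zc3h12b (1.30 ± 0.13), Nphs1 (1.29 ± 0.17), Dgkg (1.25 ± 0.19), Rab37 (1.09 ± 0.13), Cerkl (1.07 ± 0.13), Myo1d (1.05 ± 0.14), Ppm1e and Tmtc1 (1.03 ± 0.13 and 1.03 ± 0.14), and Ccser1 and Asap1 (1.02 ± 0.08 and 1.02 ± 0.10) made up the rest of the 12 largest rises. Nphs1 spans 28.9 kb and the other 11 from 70.8 kb (Rab37) to 1203 kb (Ccser1).

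The falls were led by Apoe, with 18.6, 33.2, 10.1 and 12.1 CPM against 127.6, 36.8, 213.8 and 312.0 CPM (-3.38 ± 0.61). The levels of Apoe in the other shallow barcodes varied over libraries and were highest in male 2, where the immune markers were also highest, and their part in this fall was not tested. Calb2 (calretinin), a calcium buffer, on chromosome 8 from 110137502 to 110168210, measured 97.4, 76.5, 95.4 and 102.3 CPM against 243.1 to 384.1 CPM in the other shallow barcodes and 372.7 to 451.3 CPM in the deep neurons. It was lower than both groups in every library, by 1.81 ± 0.15 on the log2 scale against the former. Marcksl1, a protein of growing neurites, fell by 1.40 ± 0.19. Of the other 9 largest falls, Ndufa7, Ndufa2, Ndufb1-ps, Cox4i1, Sdhaf4 and Uqcrq belong to respiratory complexes or their assembly, Rplp2 to the ribosome and Slirp to the handling of mitochondrial RNA, with falls of 1.15 to 1.26; the 9th was Wdr83os at -1.15 ± 0.12.

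By class, 80 of 81 ribosomal protein genes were lower (background 17.6%), with a median of -0.92, and 45 of 45 nuclear-encoded respiratory chain genes, with a median of -0.96. The 13 mitochondrial messages had a median of -0.02, and mt-Co1 measured 6000 to 6791 CPM against 5794 to 6356 CPM. Against the deep neurons, nuclear-encoded messages of the respiratory chain had been lower and mitochondrially encoded ones higher. In the present comparison the former were again lower, while the median of the latter was -0.02. The mitochondrial median was 0.09 without TMM scaling. Splicing and speckle genes were higher for 20 of 28 and lower for 0 (background 15.3%), with a median of 0.28, and Son, a speckle scaffold, measured 671.6 to 772.5 CPM against 415.1 to 546.6 CPM (0.45 ± 0.04). The axonemal Cfap and Dnah genes were higher for 11 of 33 and lower for 4, with Dnah11 at 0.94 ± 0.05 and Cfap44 at 0.84 ± 0.06. Adhesion and axon sorting genes were higher for 8 of 28 and lower for 2, with a median of 0.15, and Ncam1 at 0.07 ± 0.03 and Clstn1 at 0.00 ± 0.03 did not pass the threshold. Mature neuron markers were lower for 10 of 15 and higher for 1, with S100a5 at -0.79 ± 0.06 and Stoml3, a stomatin of the olfactory cilium, at -0.43 ± 0.03. Immature neuron markers were lower for 10 of 16 and higher for 0, with Stmn2 at -0.61 ± 0.07. Immediate early genes were lower for 13 of 22, with a median of -0.55, and Fos measured 417.2 to 504.7 CPM against 508.2 to 620.9 CPM, with no overlap (-0.40 ± 0.04).

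At a fixed depth of 2500 to 3500 UMIs the make-up also followed the number of UMIs of the 3 genes, with no step at the minimum of 3. Ribosomal protein messages were 30615 ± 2368 CPM in the 79 barcodes with none of them, 17909 ± 2394 in the 166 with 3, and 11533 ± 861 in the 146 with 9 or more (SD, n = 4 libraries). Nuclear-encoded respiratory chain messages went from 20434 ± 2757 to 6775 ± 540 CPM over the same classes. Splicing and speckle genes went from 7628 ± 1097 to 12622 ± 416 CPM and adhesion genes from 6964 ± 621 to 11699 ± 338 CPM. Mitochondrial messages were 31387 ± 4292 CPM with none of the 3 genes, 41558 ± 5423 with 1 and 39626 ± 4232 with 9 or more. Sustentacular markers stayed between 1067 and 1278 CPM. The median depths of these classes ranged only from 2955 to 3116 UMIs.

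**Figure D4:**
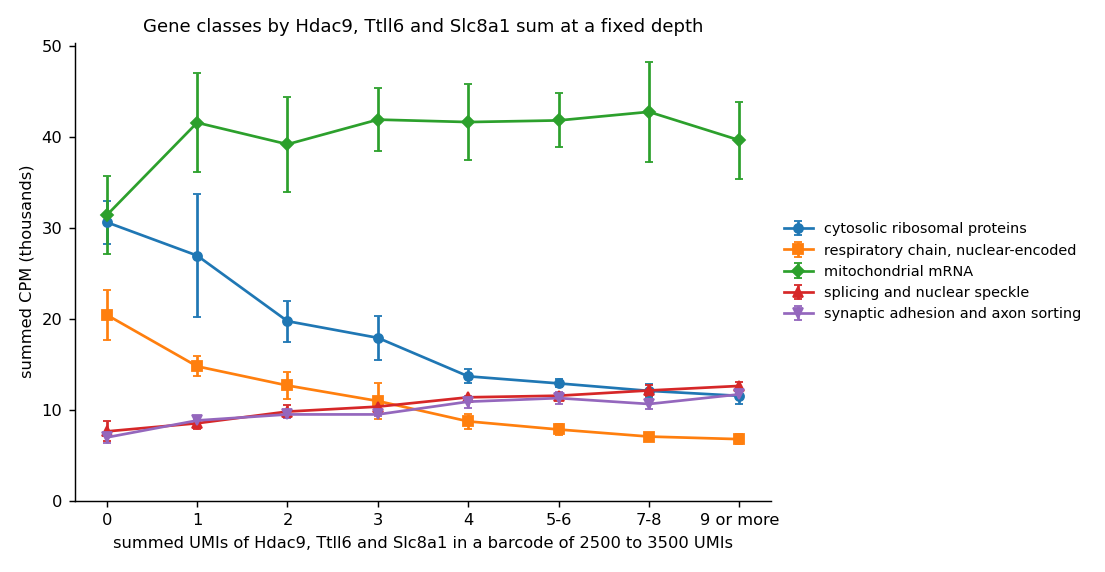
Summed CPM of 5 gene classes (vertical axis, in 1000 CPM) in barcodes of 2500 to 3500 UMIs, by the summed UMIs of Hdac9, Ttll6 and Slc8a1 in the barcode (horizontal axis). Points are means and bars SDs over 4 libraries; ribosomal protein messages went from 30615 to 11533 CPM and mitochondrial mRNA lay between 39182 and 42744 CPM from 1 UMI on.

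The label speaks of long transcripts, so every gene tested was placed by the genomic span and the exonic length of its annotation, which matched 10999 of 11001 genes. Against the deep neurons the median log2 fold change was -0.96 for 1121 genes under 5 kb, 0.13 for 3003 genes of 20 to 50 kb, 0.57 for 973 genes of 100 to 200 kb and 0.86 for 104 genes over 500 kb. Of genes over 500 kb, 70.2% were called higher and 14.4% lower, and of genes under 5 kb, 4.91% and 73.7%. Against the other shallow barcodes the medians went from -0.49 to 0.38 over the same bins, and 52.9% of genes over 500 kb were called higher. The median of genes of at least 100 kb exceeded that of genes under 10 kb by 1.32 against the deep neurons and by 0.63 against the other shallow barcodes, where it was 0.27 with no filter on low counts.

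Exonic length gave the same order. Genes with under 1 kb of exons had medians of -1.35 and -0.75 in the 2 comparisons and those with over 12 kb had 0.75 and 0.33. Each length carried an order within classes of the other. Among genes with 2 to 4 kb of exons, the median against the deep neurons went from -0.55 for spans under 10 kb to 0.14 for spans of at least 100 kb. Among genes spanning 10 to 50 kb it went from -0.83 with under 2 kb of exons to 0.29 with at least 6 kb. Genes called higher against the deep neurons had a median span of 53.02 kb and 6.9 kb of exons, and genes called lower 12.8 kb and 3.0 kb. These medians run over genes, which are not replicates, and classes such as ribosomal proteins (median span 3.29 kb) and adhesion genes (159.9 kb) differ in span themselves. Whether reads in introns were counted is not given in the sources used here, and its part in the order was not tested. Only Tug1 and Snhg11, of 14 long noncoding RNAs listed as nuclear, were analysed; Tug1 measured 63.5 to 73.2 CPM against 30.4 to 31.0 CPM in the deep neurons and 53.9 to 64.0 CPM in the other shallow barcodes (0.92 ± 0.07 and 0.06 ± 0.10, the latter not past the threshold). Snhg11 measured 27.6, 13.9, 20.3 and 24.1 CPM against 6.03 to 6.85 and 5.18 to 13.0 CPM, and was higher than both (1.53 ± 0.28 and 1.10 ± 0.33). Its level in the other shallow barcodes rests on few UMIs, as their sums held 713275 to 964673 UMIs of all genes.

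**Figure D5:**
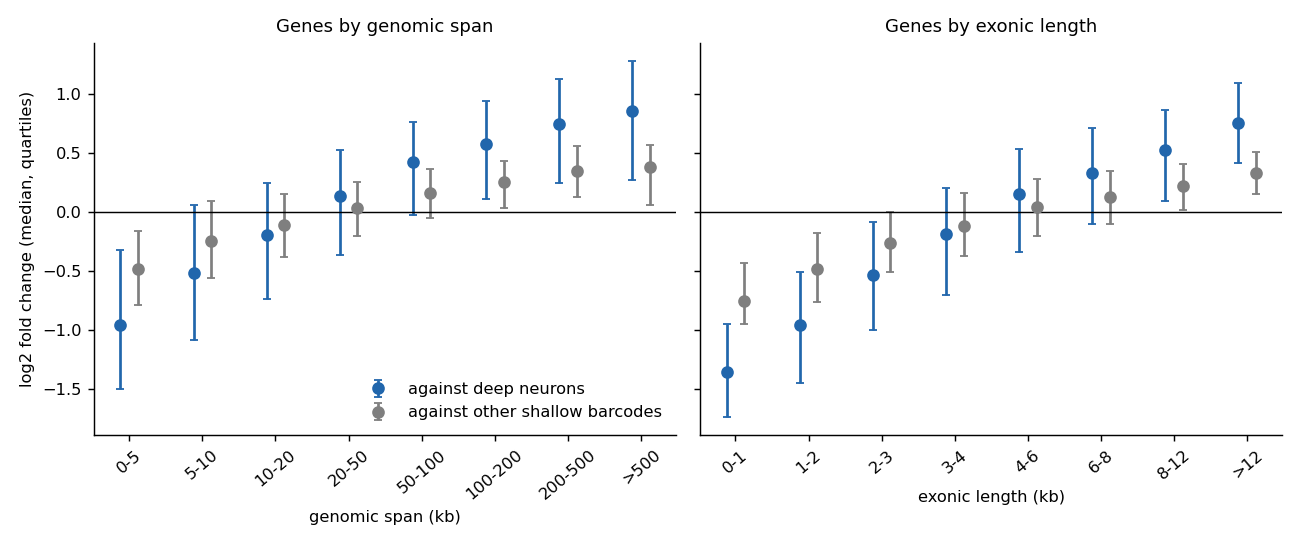
Median log2 fold change (vertical axis) of the long-transcript barcodes against the deep neurons and against the other shallow barcodes, for genes in bins of genomic span (left, kb) and exonic length (right, kb); bars span the quartiles over genes. The medians rose from -0.96 to 0.86 and from -0.49 to 0.38 over genomic span.

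The receptors of these barcodes were not used by the rule. Exactly 1 odorant receptor at 3 or more UMIs was found in 90.5%, 89.6%, 89.9% and 90.9% of the long-transcript barcodes, in 82.6% to 89.4% of the other shallow barcodes and in 82.9% to 85.1% of the deep neurons. At least 2 were found in 2.28% ± 0.578, 2.02% ± 0.460 and 10.9% ± 0.791 (SD, n = 4), and, thinned to 1000 UMIs, in 0.751% ± 0.423, 0.409% ± 0.388 and 2.32% ± 0.0681. Receptor messages made up 10624, 9704, 10314 and 10381 CPM in the long-transcript barcodes and 6957 to 7781 CPM in the deep neurons, or 8691 ± 400 CPM under the Cyp2g1 limit, and 9734 to 10926 CPM in the other shallow barcodes. The shallow groups overlapped in receptor content, and both lay above the deep neurons. Among 177 long-transcript barcodes with no such receptor, 5 held a trace amine receptor at 3 or more UMIs, and among 907 deep neurons 111 did. Both the lack of a receptor and this minimum depend on depth, and these counts were not thinned. They therefore do not show whether the groups differ in trace amine neurons, and the other shallow barcodes were not counted.

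The 2135 long-transcript barcodes with 1 receptor spread over 615 receptor genes, 610 of which were also found among the 948 of the deep neurons. The commonest was Olfr15, in 6, 8, 11 and 4 barcodes (1.36% of the total), against 19, 18, 24 and 21 deep neurons (0.529%). Olfr31 was found in 9, 9, 4 and 3 barcodes (1.17% against 0.439%). Olfr536, the most frequent of these receptors in the deep neurons with 273 (1.76%), was found in 20 long-transcript barcodes (0.937%). These counts are small and single receptors were not tested. Together, the 20 commonest receptors of the deep neurons, listed for each library from the other 3, held 14.6%, 13.7%, 9.24% and 8.75% of the long-transcript barcodes. They held 17.4%, 16.4%, 14.8% and 13.4% of the deep neurons and 19.3%, 16.6%, 15.8% and 12.8% of the other shallow barcodes. The share was lower in the long-transcript barcodes in 4 of 4 libraries, by 3.93 ± 1.39 points against the deep neurons and 4.57 ± 1.54 points against the other shallow barcodes (SD of the difference, n = 4), with an exact sign-flip permutation p of 0.13 for each, the smallest possible. Across libraries the ranges of the groups overlapped. The list was chosen from the deep neurons, so a share below theirs was favoured in advance. Neither shallow group was used to choose it.

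The labels give sex as the difference between libraries. Long-transcript barcodes made up 5.33% (female 1) and 5.93% (female 2) of the barcodes, against 6.48% (male 1) and 6.12% (male 2) (exact two-sided permutation test, p = 0.33, the smallest that 2 against 2 allow). The mitochondrial shares of the long-transcript barcodes given above were higher in both male libraries (exact permutation p = 0.33). Those of the deep neurons were also higher in both, while in the other shallow barcodes male 2 was the lowest library. As a check of the labels, Eif2s3y, a gene of the Y chromosome, had 0 and 0 UMIs in the long-transcript barcodes of the females and 262 and 268 in the males. Of 10421 genes tested between the sexes, 20 (0.192%) passed an adjusted p of 0.05, with 11 (0.106%) at a higher and 9 (0.0864%) at a lower level in males, while 475 (4.56%) fell under 0.05 before adjustment (quasi-likelihood test of edgeR, Benjamini-Hochberg adjusted). The 8 called genes of lowest p were Eif2s3y, Uty and Ddx3y of the Y chromosome and the odorant receptors Olfr60, Olfr1393, Olfr446, Olfr545 and Olfr390. Olfr60 had 0 and 1 UMIs in females and 155 and 121 in males, while the deep neurons held 825, 1387, 1283 and 767 UMIs with no such split. How many barcodes these UMIs came from was not counted. The number of calls was not stable: it was 0 in either direction when genes of low count were kept, 33 and 23 by DESeq2, and 3 and 0 without male 2. The test of whether the difference from the deep neurons itself differed by sex called 3 of 14982 genes (0.02%), of which 2 (0.0133%) had a higher and 1 (0.00667%) a lower difference in males, while 589 (3.93%) fell under 0.05 before adjustment. These calls went to 0 and 0 without male 2 and to 17 and 19 by DESeq2.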

How the data were processed

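The authors deposited unnormalized UMI counts of 22399 genes in each barcode, made with Cell Ranger (6.0.2 per the file headers, 5.0.1 with genome build mm10 per the submitters' processing notes). Whether introns were counted is not given in the sources used here. The members and the gene lists were chosen with earlier results of these data known. Counts were summed per library and group, giving 12 sums in 1 fit. Genes were filtered with filterByExpr, scaled by TMM and tested with edgeR 4.0.16 (quasi-likelihood, library as a block, Benjamini-Hochberg threshold 0.05, R 4.3.3). The sexes were compared within the long-transcript barcodes, and the interaction of sex and group was fitted on them and the deep neurons. CPM in the text are shares of each sum's UMIs, without TMM. DESeq2 1.42.0, other filters, scalings and limits, and fits without each library were alternatives. Gene positions and lengths come from GENCODE M21, which matched 22362 IDs. On simulated data the test recovered 84% of 1.5-fold and 98% of 2-fold changes against the deep neurons over 10975 genes, 50% and 84% against the other shallow barcodes, and 32% and 78% between the sexes over 10510 genes. For the interaction it recovered 1% and 39% over 15107 genes. Of the simulated calls in the first 3 tests, 5.21%, 4.29% and 2.65% were false. The simulation gave all genes the same spread, gave libraries no differences beyond their totals, and changed far fewer genes than were called against the deep neurons. Its recoveries therefore need not hold in these data. Named were, in each comparison, the 12 largest rises and 12 largest falls among called genes of at least 30 CPM with 1 direction in 4 libraries (without odorant receptors, the 3 genes of the rule, Exoc6b and mt- genes), up to 4 genes of highest mean CPM per list, and up to 8 called sex genes of lowest p. Receptor genes needed 3 UMIs to count as present. Adcy3 and Gap43 were named outside this rule. SDs are over 4 libraries. Some genes that this rule names are not reported here.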

Additional observations from a re-analysis of the deposited data

Results flagged for a closer look

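The difference between long-transcript barcodes and deep neurons differed between the sexes for 3 of 14982 genes tested (0.02%), all odorant receptors, by edgeR's quasi-likelihood test of the interaction with Benjamini-Hochberg adjustment, and 589 genes had an unadjusted p under 0.05. Olfr60 had a log2 interaction of 8.05 (adjusted p = 0.0245), with 0 and 1 UMIs in the long-transcript barcodes of females and 155 and 121 in those of males, against 825, 1387, 1283 and 767 in the deep neurons. Olfr729 had an interaction of -5.33 (adjusted p = 0.0299), with 60, 112, 2 and 2 UMIs against 489, 841, 589 and 521. Olfr1241 had an interaction of 6.02 (adjusted p = 0.0416), with 2, 4, 144 and 61 UMIs against 943, 557, 491 and 193. Counts are in the order female 1, female 2, male 1, male 2, and fitted values against counts this near 0 depend on the prior count of the fit. UMIs of a receptor come from the barcodes that express it, and those barcodes were not counted for these 3 genes. Olfr15, the commonest receptor, was the only receptor in 6, 8, 11 and 4 long-transcript barcodes in the same order. The part of such small numbers of barcodes in these calls was not tested. No interaction was called in either direction without male 2 (0 and 0 calls), and DESeq2 called 17 higher and 19 lower.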

How the results depend on the processing

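Counts of genes called against the deep neurons and the other shallow barcodes stayed within 1.5 times of the reported ones under every alternative run. Without each library in turn they were 3737 to 3797 higher and 3735 to 3755 lower, and 1211 to 1411 higher and 1543 to 1656 lower. Sex calls were not stable. Genes higher in males numbered 11, but 33 by DESeq2, 0 with no filter on low counts and 3 to 24 without 1 library; genes lower in males numbered 9, but 23, 0 and 0 to 13. The interaction gave 2 and 1 calls, but 17 and 19 by DESeq2 and 0 to 22 and 0 to 18 without 1 library. The replicate numbers of the labels did not pair females with males (r = -0.0137 over 10421 genes); with the replicate block 14 genes were higher and 7 lower, and with no replicate block of libraries 4166 and 4003 genes were called against the deep neurons and 1711 and 1944 against the other shallow barcodes. The length difference of 1.32 against the deep neurons was 1.17 with no filter, 1.24 fitted on 2 groups, 1.47 with at least 5 UMIs of the 3 genes, 1.23 with at least 10 Omp UMIs and 1.21 with deep neurons up to 7000 UMIs (1.30 to 1.33 without 1 library). That of 0.63 was 0.27 with no filter, 0.77 with at least 5 UMIs, 0.67 from 2000 UMIs and 0.74 with 10 Omp UMIs (0.60 to 0.66 without 1 library). The share of barcodes of 5.96% was 3.69% with at least 5 UMIs, 5.39% from 2000 UMIs and 3.99% with 10 Omp UMIs. The mitochondrial difference of 1.89 points from the deep neurons was 1.79 with 10 Omp UMIs, 2.17 with the Cyp2g1 limit and 2.01 with no mitochondrial limit, and that of 0.252 from the other shallow barcodes was -0.00752 with no mitochondrial limit.

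Medians that changed sign against the deep neurons were as follows, and the cause was not tested. Mature markers, Omp included (0.01), had -0.022 by DESeq2, -0.059 with 5 UMIs, -0.13 with the Cyp2g1 limit, -0.077 with 1 receptor, -0.14 with both and -0.32 up to 7000 UMIs. Sustentacular markers (-3.22) had 0.20 with the limit, 0.17 with both and 0.55 up to 7000 UMIs. Receptors (-0.16) had 0.039 without TMM and 0.32 with no replicate block. Transduction genes (0.22) had -0.10 with the limit, -0.10 with both and -0.17 up to 7000 UMIs. The calcium family (0.87) had -0.17 with no filter. Deacetylases (-0.16) had 0.033 without TMM, 0.18 with the limit, 0.21 with both and 0.15 up to 7000 UMIs. Apoptosis genes (-0.17) had 0.025 without TMM. Neuronal transcription genes (0.01) had -0.023 by DESeq2, -0.025 with 5 UMIs and -0.029 with 10 Omp UMIs. With the Cyp2g1 limit, both and up to 7000 UMIs in that order, Abca13 had 0.10, 0.18 and 0.093, Sec14l3 0.15, 0.21 and 0.30, Cpm 0.040, 0.16 and 0.43, and Tyro3 0.19, 0.29 and 0.62; Rhod had 0.21 with the limit; Mgll, Atp13a5 and Tcim had 0.66, 0.13 and 0.066 up to 7000 UMIs. Against the other shallow barcodes mitochondrial mRNA (-0.02) had 0.086 without TMM, 0.017 with no filter and 0.037 from 2000 UMIs, deacetylases (0.04) had -0.038 from 2000 UMIs and zone markers (-0.07) 0.031 without TMM. The limit combined with 1 receptor, and deep neurons up to 7000 UMIs, were chosen after seeing the data.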
